A study of Homo sapiens with 16 samples.

Results

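The NF-kB pathway was described here through 36 named genes: the subunits of the transcription factor, the proteins that hold it back, the kinases and adaptors that release it, and genes it is known to switch on. They were taken by symbol from the expression tables of U87 xenografts. The first table, of 17318 genes, held 34 of the 36, and the second, of 18168 genes, held 35. CXCL6 is in neither table as given here and CCL20 in the second only, so 34 of the 36 could be set side by side in both experiments.

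U87 is an established human glioblastoma line, here carrying luciferase and grown in the brains of nude mice, which lack mature T cells. In the first experiment, 3 tumours of mice given MSC exosomes (the labels' abbreviation for the source) with an siRNA against human MYC, number 1 (Myc1), were set against 4 given exosomes with scramble siRNA 1 (Scr1). The second experiment compared 5 tumours given MYC siRNA number 2 (Myc2) and 4 given scramble number 2 (Scr2). All 16 tumours were labelled WT and were collected at euthanasia, each from its own mouse, and all had received exosomes, so no group shows the tumour without them. In the first experiment injections of 1e9 exosomes in 100 µl went behind the eye every other day from day 28. Every tumour came from 1 cell line, and host mouse cells grow into such xenografts. Values are CPM, a gene's reads scaled to a common library size, and differences are on the log2 scale, so 1 unit is a doubling.

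NF-kB is a family of dimers built from RELA, RELB, REL and the processed products of NFKB1 and NFKB2. In resting cells IkB proteins keep the dimers in the cytoplasm. Signals from TNF receptors, interleukin-1 receptors and Toll-like receptors activate the IKK kinase complex, which marks IkB for destruction, and the freed dimers enter the nucleus and bind short DNA elements. Their targets include their own inhibitors, such as NFKBIA and TNFAIP3, which close a feedback loop, as well as survival genes, chemokines and prostaglandin synthesis. In glioblastoma the pathway is known for its link with the mesenchymal expression state.

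The promoters of 8 members that hold a match to the NF-kB consensus decamer are shown first. They include the members higher at an unadjusted p under 0.05 in both experiments (TNFRSF9, NFKBIA and CXCL3) and the chemokine neighbours of CXCL3. They were picked for the match as well as for their values, and other members with large differences, among them BCL3 and PTGS2, had no match in the window searched. They run 5′ to 3′ on each gene's own strand up to its start and come from RefSeq, build GRCh38.p14. Capitals mark every stretch of DNA that matches the NF-kB consensus decamer on either strand, and overlapping matches are joined into 1 run.
TNFRSF9 (chr1:7940840-7940989, - strand): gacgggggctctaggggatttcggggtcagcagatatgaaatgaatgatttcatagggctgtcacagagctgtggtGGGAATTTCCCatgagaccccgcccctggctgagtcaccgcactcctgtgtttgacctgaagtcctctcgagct
NFKBIA (chr14:35404750-35404899, - strand): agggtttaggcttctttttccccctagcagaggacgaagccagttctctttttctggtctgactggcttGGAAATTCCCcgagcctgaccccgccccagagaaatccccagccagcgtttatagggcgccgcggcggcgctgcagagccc
TNFAIP3 (chr6:137867109-137867258, + strand): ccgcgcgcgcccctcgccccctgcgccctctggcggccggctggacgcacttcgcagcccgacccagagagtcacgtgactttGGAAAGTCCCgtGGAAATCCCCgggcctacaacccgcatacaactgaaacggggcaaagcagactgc
NFKBIZ (chr3:101827740-101827989, + strand): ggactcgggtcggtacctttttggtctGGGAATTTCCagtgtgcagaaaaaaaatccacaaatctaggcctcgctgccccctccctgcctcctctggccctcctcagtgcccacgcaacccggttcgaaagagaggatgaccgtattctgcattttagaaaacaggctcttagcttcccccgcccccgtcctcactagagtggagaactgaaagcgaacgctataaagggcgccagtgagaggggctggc
BIRC3 (chr11:102317234-102317483, + strand): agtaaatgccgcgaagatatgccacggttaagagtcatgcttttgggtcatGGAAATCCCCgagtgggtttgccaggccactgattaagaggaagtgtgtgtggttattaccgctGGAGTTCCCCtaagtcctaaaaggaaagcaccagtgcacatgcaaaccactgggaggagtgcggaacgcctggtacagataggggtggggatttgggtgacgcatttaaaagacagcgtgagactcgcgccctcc
CXCL1 (chr4:73869243-73869392, + strand): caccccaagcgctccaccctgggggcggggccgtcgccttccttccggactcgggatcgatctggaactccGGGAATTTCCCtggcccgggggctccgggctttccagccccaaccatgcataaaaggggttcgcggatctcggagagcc
CXCL2 (chr4:74099196-74099345, - strand): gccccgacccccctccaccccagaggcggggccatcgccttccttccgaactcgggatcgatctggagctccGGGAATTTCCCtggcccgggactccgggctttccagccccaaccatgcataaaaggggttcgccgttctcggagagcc
CXCL3 (chr4:74038690-74038839, - strand): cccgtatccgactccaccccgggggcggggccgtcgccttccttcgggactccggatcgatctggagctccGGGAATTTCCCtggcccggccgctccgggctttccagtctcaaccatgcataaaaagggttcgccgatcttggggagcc

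The 3 chemokine genes CXCL1, CXCL2 and CXCL3 carried the run GGGAATTTCCC at 79, 78 and 79 bases before the start, and TNFRSF9 carried it at 74 bases. NFKBIA had its match 81 bases before the start on the opposite strand. TNFAIP3 held a pair of matches, at 67 and 55 bases, and BIRC3 a pair at 199 and 135 bases. NFKBIZ had its match at 223 bases. Of the 31 members with a promoter in the RefSeq table, 15 (48.4%) held the decamer in the 250 bases before the start, against 3498 of all 35116 promoters of the same length (9.96%). For a member only the first promoter listed for its symbol was searched, whereas every listed promoter was counted in the 35116. The shares are thus not on the same base, and a decamer at another start of a member would be missed. The members were chosen as known NF-kB genes, so this excess is a description of the choice, and a match is not a shown binding site. RELB, NFKBIE, IKBKB, IER3 and CCL2 have no entry in the table.

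**Figure D1:**
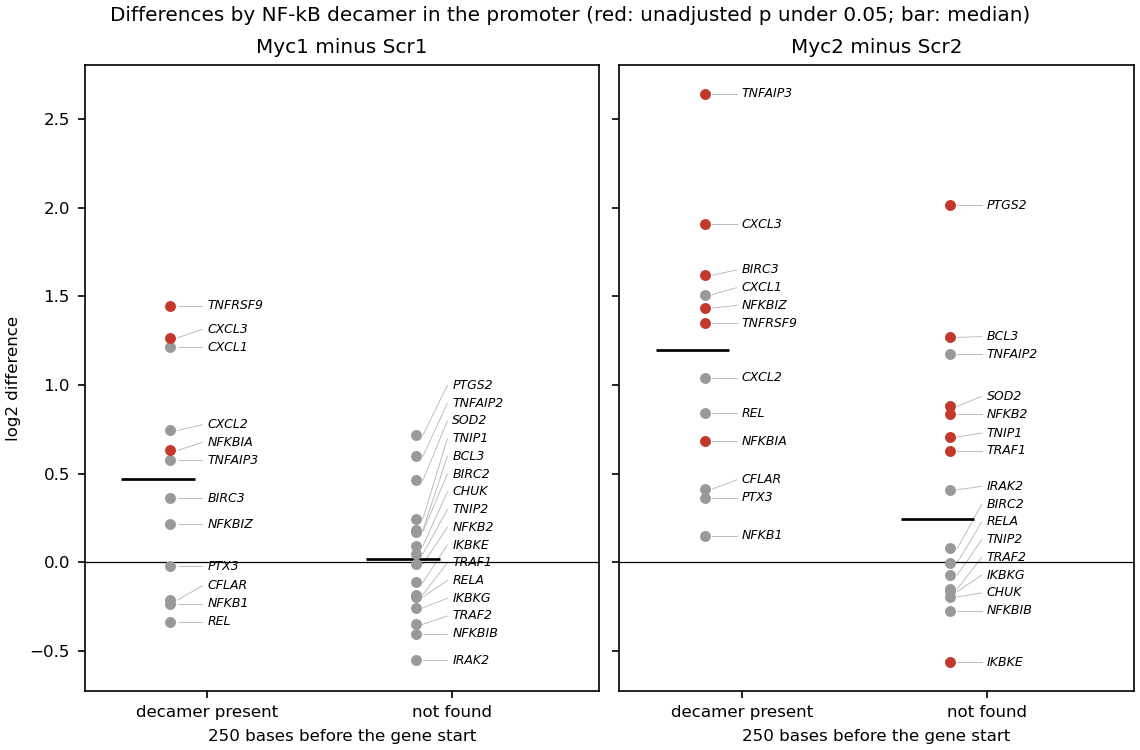
Difference in log2 CPM (vertical axes) of each member with a promoter in the table, for Myc1 minus Scr1 and for Myc2 minus Scr2, split by whether the decamer was found in the 250 bases before the start, with a bar at each median and red points for an unadjusted p under 0.05. In the second experiment the 12 tested members with the decamer lie between 0.15 and 2.64, all above 0, and the 16 without it between -0.56 and 2.01.

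Sorted by the decamer, the 12 tested members that hold it had a median difference of 0.47 in Myc1 minus Scr1, 8 of them above 0, against 0.02 and 8 above 0 for the 16 tested members in which it was not found. In Myc2 minus Scr2 the medians were 1.20 with all 12 above 0 and 0.24 with 9 of 16 above 0. Of all genes tested, 49.5% and 48.2% were above 0. By limma, 3 of 12 and 0 of 16 were higher at an unadjusted p under 0.05 in the first experiment (1.96% of all genes). In the second, 6 of 12 and 6 of 16 were (7.00%), and 1 of the 16 was lower (6.36%). TNFRSF9, TNFAIP3 and CXCL3, with the decamer, and PTGS2, without it, were under 1 CPM in a Scr2 library. They entered the second test only with Myc2 libraries, where they were higher. The comparison of the decamer sets was not tested, since the chemokine genes are near copies.

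Before the members, 3 facts of the libraries bear on them. Estimated library sizes were 15.1 to 31.9 M reads apart from Scr1 replicate 3 with 3.38 M and Scr2 replicate 4 with 9.88 M, so low genes are least certain there. On the first principal component of the second table, 43.8% of the variance, Scr2 replicates 1 and 4 lay at -63.4 and -94.4, whereas the remaining 7 spanned 2.74 to 47.6. In the first table that component held 31.3%, with -61.5 for Scr1 replicate 4 and a range of -29.5 to 44.7 for the remaining 6. MYC, the siRNA target, stood at 38.1, 26.5 and 14.3 CPM in Myc1 against 21.2, 30.2, 50.7 and 108 CPM in Scr1, a difference of -0.83 ± 0.54 (SE) log2 units (exact two-sided permutation p = 0.314, where 0.0286 is the smallest possible). In the libraries labelled Myc2 it stood at 55.3, 57.5, 47.0, 72.1 and 42.3 CPM against 40.2, 35.3, 47.1 and 25.9 CPM in the libraries labelled Scr2, a difference of 0.57 ± 0.21 (exact two-sided permutation p = 0.0397), so the target was higher where the label names its siRNA. Group names for the second experiment are therefore the labels, and "higher in Myc2" means higher in the libraries labelled so. Markers of U87 (VIM, CD44, FN1 and TIMP1) were high in every library, at 5331 to 10404 CPM in sum, and CDKN2A, which U87 has lost, is in neither table.

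Across the pathway, 24 of the 32 tested members had a higher mean in the libraries labelled Myc2 than in Scr2, and 18 of 32 had a higher mean in Myc1 than in Scr1. A member entered the limma test if it reached 1 CPM in as many libraries as the smaller group holds, and 32 did so in each experiment, with IL32 and CCL2 below this level in both and CCL20 in the second. Of the 32, 28 stood at 1 CPM or more in every Scr1 library and 28 in every Scr2 library. The exceptions were TNFRSF9, PTGS2, CXCL1 and CXCL3 in Scr1 and TNFRSF9, TNFAIP3, PTGS2 and CXCL3 in Scr2. Those in Scr1 reached 1 CPM in 3 Scr1 libraries, enough to enter on Scr1 alone. In the second experiment 4 libraries were needed, so its 4 exceptions entered only with Myc2 libraries, where their means were higher. All 4 are among the 14 members higher at an unadjusted p under 0.05 in Myc2 minus Scr2. In Myc1 minus Scr1, 18 of 32 members were above 0 (49.5% of all 13933 genes tested were), 3 were higher at an unadjusted p under 0.05 (1.96% of all genes) and 0 were lower (1.52%). In Myc2 minus Scr2, 24 of 32 were above 0 (48.2% of all 14208 genes), 14 were higher at that p (7.00% of all genes) and 1 was lower (6.36%). Groups did not overlap for 1 of the 32 tested members in the first experiment, higher in Myc1 (1.94% of all genes), and for 4 of 32 in the second, higher in Myc2 (1.40%), with 0 tested members lower without overlap in either (2.27% and 1.61%). The median member difference was 0.07 in the first experiment, against -0.0028 over all genes, and 0.70 in the second, against -0.02 over all genes.

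No single member passed the adjusted threshold of 0.05 in either experiment, nor did any gene (0 of 13933 and 0 of 14208 by limma with Benjamini-Hochberg adjustment, with 485 and 1898 genes at an unadjusted p under 0.05). The smallest adjusted p of a member was 0.996 in the first experiment and 0.370 in the second, so the single members below are given as the log2 difference ± SE with limma's 95% interval, which rests on the spread between mice and is not adjusted for the number of genes. An interval that leaves out 0 is the same as an unadjusted p under 0.05. In bulk tumours such as these, fewer cells of a type and less RNA per cell cannot be told apart.

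**Figure D2:**
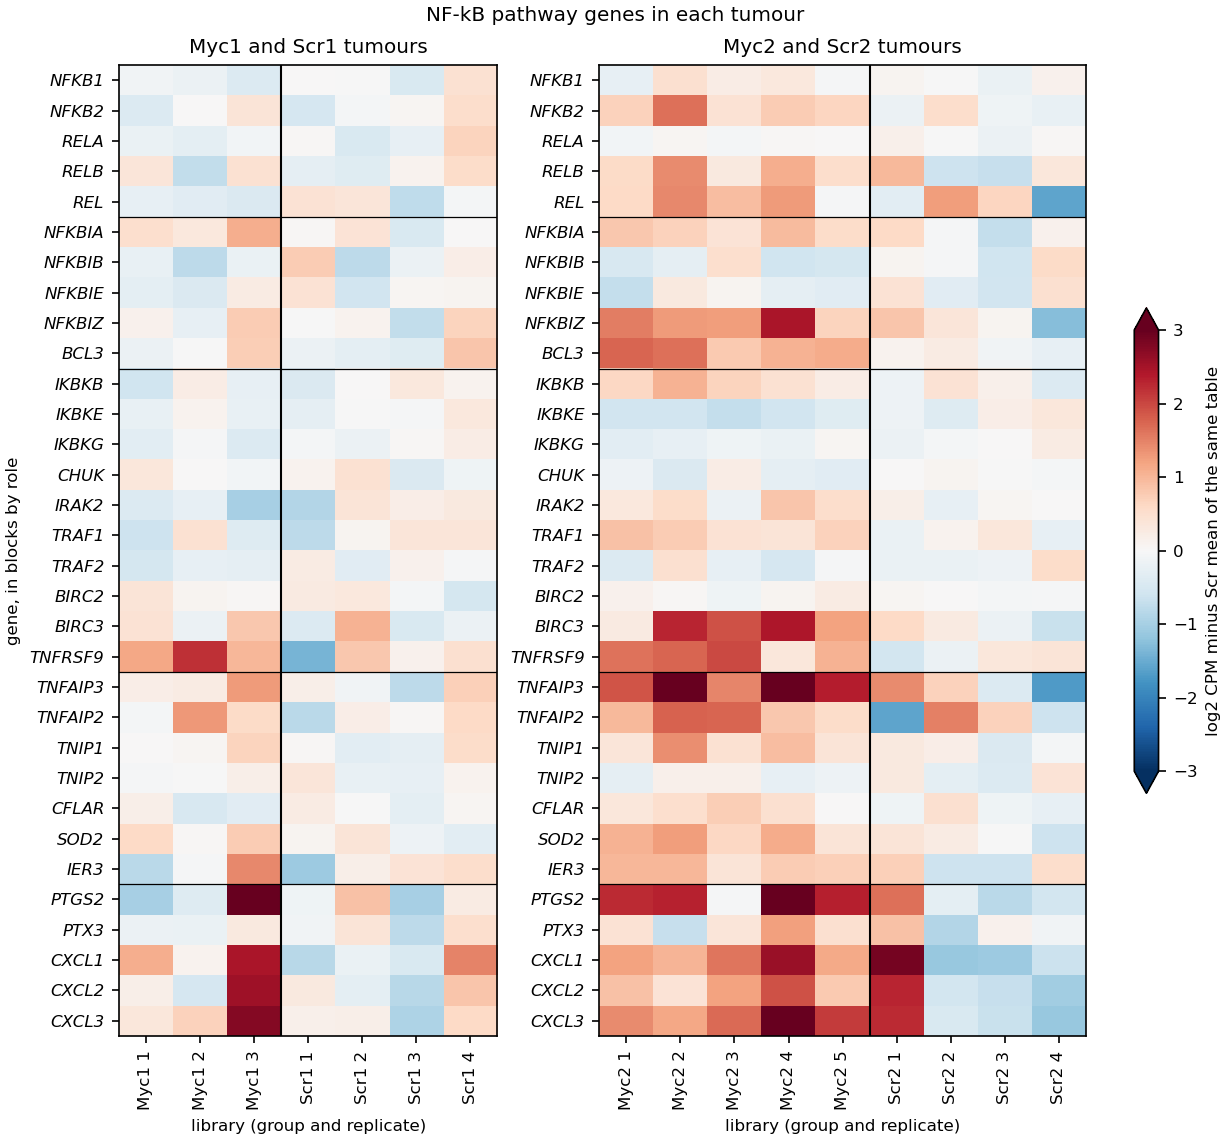
Level of each tested member in each of the 16 libraries, as log2 CPM minus the member's mean over the Scr libraries of the same experiment (colour). Members are in rows by role and libraries in columns, Myc before Scr in each experiment. Myc1 replicate 3 is the highest of its experiment for 10 members, and Myc2 replicates 2 and 4 are the highest of theirs for 9 and 8.

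Single libraries carried much of the variation. The mean log2 CPM over the 32 members was 4.28, 4.31 and 4.86 in Myc1, against 4.16, 4.36, 4.04 and 4.63 in Scr1. The groups overlapped on this measure, with Myc1 replicate 3 the highest of the 7 and Scr1 replicate 3, the library of fewest reads, the lowest. In the second experiment it was 4.90, 5.20, 4.92, 5.27 and 4.85 in Myc2, against 4.75, 4.33, 4.14 and 4.10 in Scr2. Here every Myc2 library was above every Scr2 library, Scr2 replicate 1 coming closest. The 32 members include TNFRSF9, TNFAIP3, PTGS2 and CXCL3, which entered the second test only with Myc2 libraries, where they were higher. The filter thus favours Myc2 on this measure. The mean without these genes, and the same measure over all genes, were not taken.

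The 5 subunit genes had the lowest median difference of the roles in the first experiment and were mostly above 0 in the second. In Myc1 minus Scr1, 1 of the 5 was above 0 and none had a p under 0.05, with a median difference of -0.20. In Myc2 minus Scr2, 4 of 5 were above 0, NFKB2 alone had a p under 0.05, and the median was 0.78.

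NFKB2, whose p100 product is cut to the p52 subunit of the non-canonical pathway, stood at 27.0, 36.2 and 46.9 CPM in Myc1, against 25.3, 34.6, 37.4 and 51.6 CPM in Scr1. In Myc2 it stood at 55.8, 108, 46.5, 58.0 and 53.8 CPM, against 30.4, 49.5, 31.7 and 29.4 CPM in Scr2. The first pair of groups covered the same range (-0.01 ± 0.28, 95% interval -0.62 to 0.59), while in the second only Scr2 replicate 2 reached above the lowest Myc2 library (0.84 ± 0.26, 95% interval 0.27 to 1.40). Without Scr2 replicates 1 and 4 the difference was 0.63 and the p no longer under 0.05.

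RELB, the partner of p52, stood at 19.7, 9.19 and 21.1 CPM in Myc1, against 12.8, 11.9, 16.4 and 22.4 CPM in Scr1, with no separation (0.02 ± 0.34, 95% interval -0.71 to 0.76). The Myc2 libraries held 15.3, 27.2, 12.6, 22.0 and 14.8 CPM, against 20.0, 6.70, 6.37 and 12.9 CPM in Scr2. Scr2 replicate 1 lay among the Myc2 values and the other Scr2 libraries held 12.9 CPM or less (0.78 ± 0.36, 95% interval -0.01 to 1.58).

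RELA, the main activating subunit, had the narrowest interval of the family in the second experiment. It stood at 83.5, 77.4 and 89.7 CPM in Myc1, against 97.5, 69.4, 80.4 and 153 CPM in Scr1, the high value being Scr1 replicate 4 (-0.20 ± 0.26, 95% interval -0.75 to 0.36). Its Myc2 values were 76.7, 84.6, 77.4, 82.8 and 81.5 CPM, against 89.4, 80.0, 71.9 and 82.2 CPM in Scr2, with a 95% interval of the difference of -0.29 to 0.29. The groups overlapped in both experiments, and a RELA difference inside that interval remains possible in the second.

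NFKB1, the source of p50, stood at 31.9, 30.5 and 25.7 CPM in Myc1, against 34.4, 33.9, 25.1 and 47.5 CPM in Scr1 (-0.23 ± 0.26, 95% interval -0.78 to 0.32). In Myc2 it stood at 32.2, 53.8, 44.4, 48.1 and 37.4 CPM, against 40.8, 37.7, 33.6 and 41.7 CPM in Scr2 (0.15 ± 0.18, 95% interval -0.24 to 0.54). The groups overlapped in both experiments.

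REL, the lymphoid-rich subunit c-Rel, stood at 2.67, 2.51 and 2.33 CPM in Myc1, against 4.28, 4.09, 1.86 and 3.04 CPM in Scr1 (-0.34 ± 0.40, 95% interval -1.20 to 0.53). The Myc2 libraries held 6.94, 12.4, 8.69, 11.1 and 4.46 CPM, against 3.68, 10.9, 7.14 and 1.53 CPM in Scr2 (0.84 ± 0.52, 95% interval -0.30 to 1.98). The Scr2 libraries spread more widely than the Myc2 ones, and without Scr2 replicates 1 and 4 the difference was -0.11.

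Among the inhibitors and IkB-like proteins, NFKBIA was higher in both Myc groups, and the nuclear proteins NFKBIZ and BCL3 in Myc2. NFKBIA encodes IkBα, the classical inhibitor and an early target of NF-kB. It stood at 82.2, 71.6 and 122 CPM in Myc1, against 59.3, 76.9, 42.1 and 58.2 CPM in Scr1, and only Scr1 replicate 2 reached into the Myc1 range (0.63 ± 0.26, 95% interval 0.08 to 1.18). Its Myc2 values were 98.7, 90.6, 74.4, 108 and 81.3 CPM, against 85.0, 54.7, 34.3 and 61.3 CPM in Scr2, and only Scr2 replicate 1 reached into the Myc2 range (0.68 ± 0.24, 95% interval 0.16 to 1.21). Leaving out Myc1 replicate 3 gave 0.41 in the first experiment, and leaving out Scr1 replicate 3 gave 0.48, both with p no longer under 0.05. The p of the first experiment was under 0.05 in 10 of the 13 alternatives run, and not so in limma without trend either.

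BCL3, an IkB-like coactivator of p50 and p52 dimers, had the smallest p of all members in the second experiment. It stood at 18.4, 20.6 and 34.8 CPM in Myc1, against 18.4, 17.1, 16.1 and 37.3 CPM in Scr1, overlapping throughout (0.18 ± 0.33, 95% interval -0.54 to 0.90). In Myc2 it stood at 40.1, 37.4, 20.6, 24.8 and 25.9 CPM, against 12.8, 14.1, 11.2 and 10.1 CPM in Scr2, with every Myc2 library above every Scr2 library (1.27 ± 0.23, 95% interval 0.77 to 1.77).

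NFKBIZ, a nuclear IkB needed for a second wave of targets, stood at 8.78, 6.72 and 13.5 CPM in Myc1, against 7.91, 8.56, 4.75 and 12.6 CPM in Scr1 (0.22 ± 0.37, 95% interval -0.59 to 1.02). The Myc2 libraries held 30.0, 24.9, 24.6, 56.4 and 16.3 CPM, against 18.3, 13.3, 11.0 and 4.24 CPM in Scr2 (1.43 ± 0.43, 95% interval 0.49 to 2.38). Myc2 replicate 5 lay just under the highest Scr2 value and the other Myc2 libraries were above all of Scr2. NFKBIB and NFKBIE, the other cytoplasmic inhibitors, did not follow NFKBIA: their differences were -0.40 ± 0.32 and -0.16 ± 0.29 in Myc1 minus Scr1 and -0.27 ± 0.28 and -0.19 ± 0.28 in Myc2 minus Scr2, with overlapping groups and intervals that all hold 0.

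**Figure D3:**
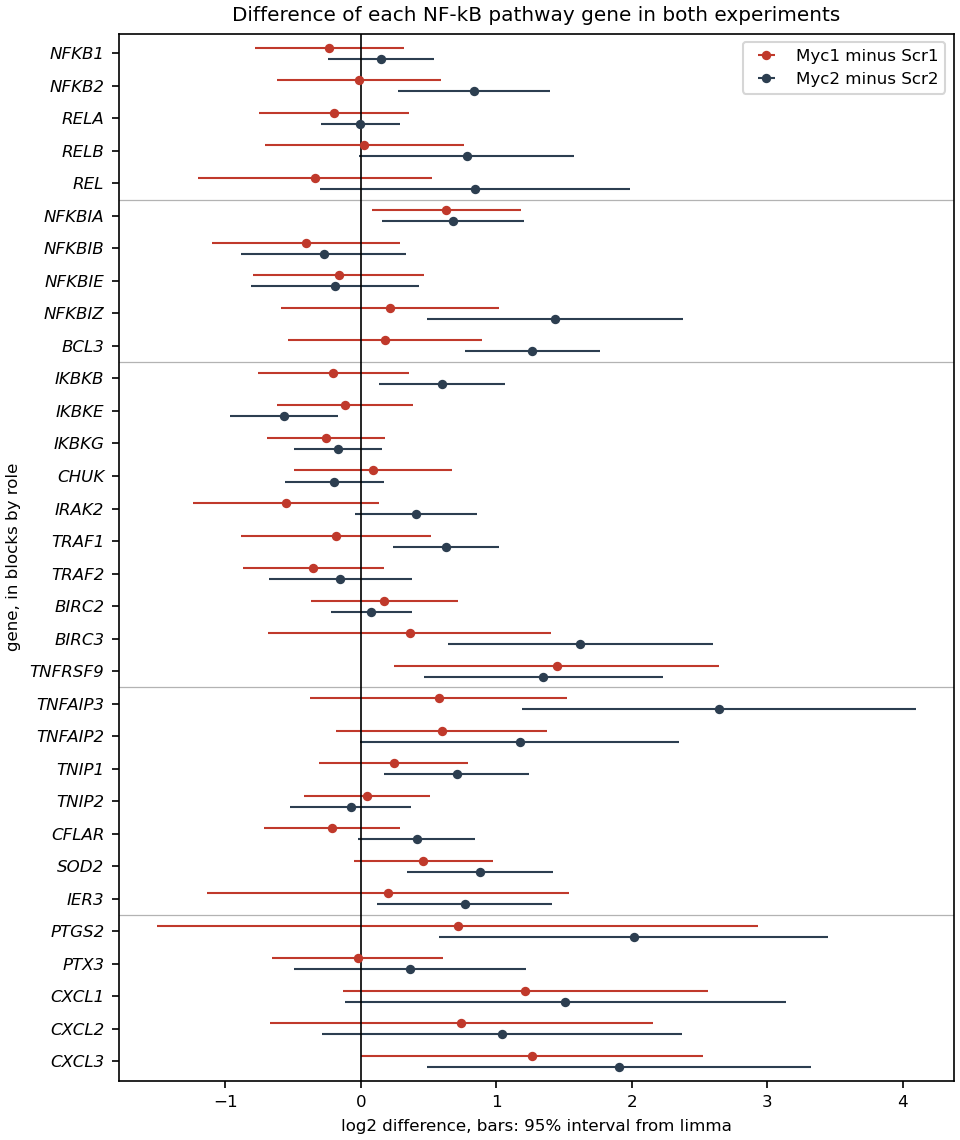
Difference in log2 CPM of each tested member with its 95% interval (horizontal axis), Myc1 minus Scr1 and Myc2 minus Scr2 in different colours, with members in rows by role. In the second experiment 24 of 32 members lie above 0 and IKBKE is the only one whose interval lies wholly below it.

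The 10 kinase and adaptor genes were split. In Myc1 minus Scr1, 4 of 10 were above 0 with a median of -0.15, and in Myc2 minus Scr2, 6 of 10 with a median of 0.24. Those above 0 with a p under 0.05 in Myc2 were BIRC3, TRAF1, TNFRSF9 and IKBKB, of which the first 3 are themselves known NF-kB targets.

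TNFRSF9, the costimulatory receptor 4-1BB, had the smallest p of the first experiment and was the only tested member there whose groups did not overlap. It stood at 2.58, 5.29 and 2.29 CPM in Myc1, against 0.438, 2.01, 1.25 and 1.61 CPM in Scr1 (1.45 ± 0.56, 95% interval 0.25 to 2.65). Its Myc2 values were 3.43, 3.69, 4.39, 1.39 and 2.29 CPM, against 0.758, 0.974, 1.40 and 1.45 CPM in Scr2, and only Myc2 replicate 4 lay within the Scr2 range (1.35 ± 0.40, 95% interval 0.47 to 2.23). These are low levels, an estimated 4.24 reads in Scr1 replicate 3 and 7.43 in Scr1 replicate 1. Without Scr1 replicate 1 the difference in the first experiment was 0.98 and without Myc1 replicate 2 it was 1.07, both with p no longer under 0.05.

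BIRC3, the inducible ubiquitin ligase cIAP2, stood at 2.33, 1.52 and 3.00 CPM in Myc1, against 1.28, 3.54, 1.25 and 1.51 CPM in Scr1 (0.36 ± 0.49, 95% interval -0.68 to 1.40). In Myc2 it stood at 3.87, 15.6, 12.2, 17.3 and 7.43 CPM, against 4.86, 3.86, 2.83 and 2.02 CPM in Scr2 (1.62 ± 0.45, 95% interval 0.64 to 2.60). Myc2 replicate 1 lay among the Scr2 values and the other 4 Myc2 libraries above them. Its constitutive relative BIRC2 differed by 0.17 ± 0.25 in the first experiment and 0.08 ± 0.14 in the second, where all values lay between 49.7 and 63.6 CPM.

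TRAF1, an inducible adaptor at TNF receptors, stood at 24.2, 50.7 and 28.3 CPM in Myc1, against 21.5, 38.9, 47.5 and 47.4 CPM in Scr1 (-0.18 ± 0.33, 95% interval -0.89 to 0.52). The Myc2 libraries held 63.3, 59.2, 46.6, 45.5 and 55.5 CPM, against 30.3, 37.0, 43.7 and 29.3 CPM in Scr2, without overlap but with a gap of under 2 CPM between the nearest libraries (0.63 ± 0.18, 95% interval 0.24 to 1.02). Without Scr2 replicates 1 and 4 it was 0.41 and the p no longer under 0.05. TRAF2, the constitutive adaptor beside it, stood at 20.2, 24.5 and 24.1 CPM in Myc1, against 34.3, 23.0, 32.1 and 28.5 CPM in Scr1 (-0.35 ± 0.24, 95% interval -0.87 to 0.17). In Myc2 minus Scr2 it differed by -0.15 ± 0.24, with all values between 21.7 and 45.0 CPM.

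Within the IKK complex and its relatives the genes went different ways in Myc2. IKBKB, the catalytic kinase of the canonical pathway, ranged over 63.4 to 111 CPM in Myc2 and 40.4 to 72.6 CPM in Scr2 (0.60 ± 0.21, 95% interval 0.14 to 1.07), and over 33.1 to 58.7 CPM in Myc1 and 37.1 to 62.1 CPM in Scr1 (-0.20 ± 0.26). Its partner kinase CHUK differed by 0.09 ± 0.27 in the first experiment and -0.20 ± 0.17 in the second. The IKBKB difference in the second experiment was 0.31 without Scr2 replicates 1 and 4, with a p no longer under 0.05.

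IKBKE, an IKK-related kinase of the interferon branch, was the only member lower at a p under 0.05. It stood at 25.9, 26.0, 23.5, 26.2 and 30.0 CPM in Myc2, against 34.8, 29.6, 44.7 and 49.3 CPM in Scr2, and only Myc2 replicate 5 passed the lowest Scr2 library (-0.56 ± 0.18, 95% interval -0.96 to -0.17). In Myc1 it stood at 32.2, 40.6 and 32.5 CPM, against 31.1, 37.7, 36.7 and 47.4 CPM in Scr1 (-0.11 ± 0.23, 95% interval -0.62 to 0.39), with overlapping groups.

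IKBKG, the regulatory subunit NEMO, stood at 82.6, 100.1 and 77.7 CPM in Myc1, against 98.9, 90.7, 105 and 119.6 CPM in Scr1 (-0.26 ± 0.20, 95% interval -0.69 to 0.18), and differed by -0.16 ± 0.15 in Myc2 minus Scr2. Its values are uncertain, as a near-identical pseudogene can share its reads. IRAK2, a kinase below interleukin-1 and Toll-like receptors, stood at 26.4, 29.6 and 17.6 CPM in Myc1, against 19.1, 45.9, 40.3 and 43.1 CPM in Scr1 (-0.55 ± 0.32, 95% interval -1.24 to 0.13). In the second experiment it ranged over 28.2 to 56.6 CPM in Myc2 and 26.6 to 35.8 CPM in Scr2 (0.41 ± 0.21, 95% interval -0.04 to 0.86).

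The feedback and survival genes held the tested member with the largest difference, TNFAIP3, and 6 of the 7 were above 0 in each experiment. None of them had a p under 0.05 in the first experiment (median 0.24), and TNFAIP3, SOD2, TNIP1 and IER3 did in the second (median 0.77). TNFAIP3 encodes A20, a ubiquitin-editing enzyme that shuts the pathway off. It stood at 3.10, 3.22 and 6.52 CPM in Myc1, against 3.03, 2.52, 1.56 and 4.46 CPM in Scr1, with Myc1 replicate 3 highest and the groups overlapping (0.58 ± 0.44, 95% interval -0.38 to 1.53). Its Myc2 values were 9.06, 25.6, 6.70, 42.0 and 12.4 CPM, against 6.46, 3.95, 1.83 and 0.749 CPM in Scr2. Every Myc2 library was above every Scr2 library, and the difference was the largest of all tested members (2.64 ± 0.66, 95% interval 1.19 to 4.10), a fold of 6.24. It was 2.08 without Scr2 replicate 4, the library with its lowest value.

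SOD2 encodes the mitochondrial superoxide dismutase, which clears superoxide. It stood at 185, 125 and 209 CPM in Myc1, against 130.3, 160.4, 109.7 and 98.7 CPM in Scr1 (0.46 ± 0.24, 95% interval -0.05 to 0.98). In Myc2 it stood at 286, 328, 211, 299 and 181 CPM, against 182, 164, 137 and 89.5 CPM in Scr2, the groups touching only at Myc2 replicate 5 and Scr2 replicate 1 (0.88 ± 0.25, 95% interval 0.34 to 1.42). In the first experiment Myc1 replicate 2 lay inside the Scr1 range and the other Myc1 libraries above it.

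TNFAIP2, a TNF-induced gene, stood at 113, 292 and 175 CPM in Myc1, against 67.3, 136, 121 and 178 CPM in Scr1 (0.60 ± 0.36, 95% interval -0.18 to 1.38). In the second experiment it stood at 275, 478, 467, 245 and 204 CPM in Myc2, against 46.8, 399, 225 and 90.1 CPM in Scr2 (1.17 ± 0.54, 95% interval -0.0021 to 2.35). The low values were those of Scr2 replicates 1 and 4, and without them the difference was 0.07. TNIP1, which carries A20 to its substrates, ranged over 95.1 to 195 CPM in Myc2 and 54.9 to 91.1 CPM in Scr2, without overlap (0.71 ± 0.24, 95% interval 0.17 to 1.24), and differed by 0.24 ± 0.26 in the first experiment. Its relative TNIP2 differed by 0.05 ± 0.22 and -0.07 ± 0.20 in the first and second experiments.

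IER3, an immediate early survival gene, ranged over 49.4 to 76.5 CPM in Myc2 and 24.8 to 62.2 CPM in Scr2 (0.77 ± 0.29, 95% interval 0.12 to 1.41). The p was under 0.05 in 11 of the 16 alternatives run for it, and not so without Myc2 replicate 1 or 2, without Scr2 replicate 2 or 3, or in the joint fit. Its difference in the first experiment was 0.20 ± 0.58, where Myc1 replicate 3 alone held 171 CPM and the other Myc1 libraries 35.6 and 61.1 CPM, against 29.2 to 90.7 CPM in Scr1. CFLAR, the caspase-8 inhibitor FLIP, differed by -0.21 ± 0.23 in the first experiment and 0.41 ± 0.20 in the second, where the interval held 0.

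Among secreted and inflammatory genes, all 5 tested members were above 0 in the second experiment and 4 in the first, with medians of 1.51 and 0.74. CXCL1, CXCL2 and CXCL3 are neighbouring chemokine genes that draw neutrophils, and since they are near copies their reads can be shared, so they are not independent. CXCL3 stood at 1.68, 2.14 and 8.94 CPM in Myc1, against 1.47, 1.50, 0.694 and 1.99 CPM in Scr1 (1.27 ± 0.59, 95% interval 0.0048 to 2.53). The Myc2 libraries held 4.40, 3.69, 5.36, 14.4 and 7.01 CPM, against 7.79, 1.20, 1.04 and 0.749 CPM in Scr2 (1.91 ± 0.65, 95% interval 0.49 to 3.32). Myc1 replicate 3 decided the first of these, which was 0.52 without it and had a p under 0.05 in 6 of 12 alternatives, and Scr2 replicate 1 stood far above the other Scr2 libraries.

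The same libraries stood out for the other chemokines. CXCL1 stood at 3.70, 1.86 and 9.41 CPM in Myc1, against 0.974, 1.50, 1.25 and 4.88 CPM in Scr1 (1.21 ± 0.62, 95% interval -0.13 to 2.56). In Myc2 it ranged over 4.85 to 14.5 CPM, and Scr2 replicate 1 alone held 17.7 CPM, against 1.09 to 1.53 CPM in the other Scr2 libraries (1.51 ± 0.74, 95% interval -0.12 to 3.14). CXCL2 differed by 0.74 ± 0.65 in the first experiment and 1.04 ± 0.61 in the second, with Scr2 replicate 1 at 16.2 CPM and the other Scr2 libraries at 1.63 to 2.29 CPM. Without Myc1 replicate 3 the first-experiment differences were 0.60 for CXCL1 and -0.15 for CXCL2, so that 1 library turned the direction of CXCL2.

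PTGS2, the inducible cyclooxygenase that makes prostaglandins, showed the widest spread within a group. It stood at 0.699, 1.06 and 16.2 CPM in Myc1, against 1.28, 2.57, 0.694 and 1.66 CPM in Scr1, so its difference (0.72 ± 0.99, 95% interval -1.50 to 2.94) rests on Myc1 replicate 3 and was -0.70 without it. Its Myc2 values were 6.94, 7.28, 1.43, 13.6 and 7.37 CPM, against 4.58, 1.20, 0.837 and 1.00 CPM in Scr2 (2.01 ± 0.66, 95% interval 0.58 to 3.45). Myc2 replicate 3 and Scr2 replicate 1 each lay inside the other group's range. PTX3, a secreted pattern recognition protein, differed by -0.02 ± 0.30 and 0.36 ± 0.39 in the first and second experiments and ranged over 23.9 to 104 CPM in all libraries.

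**Figure D4:**
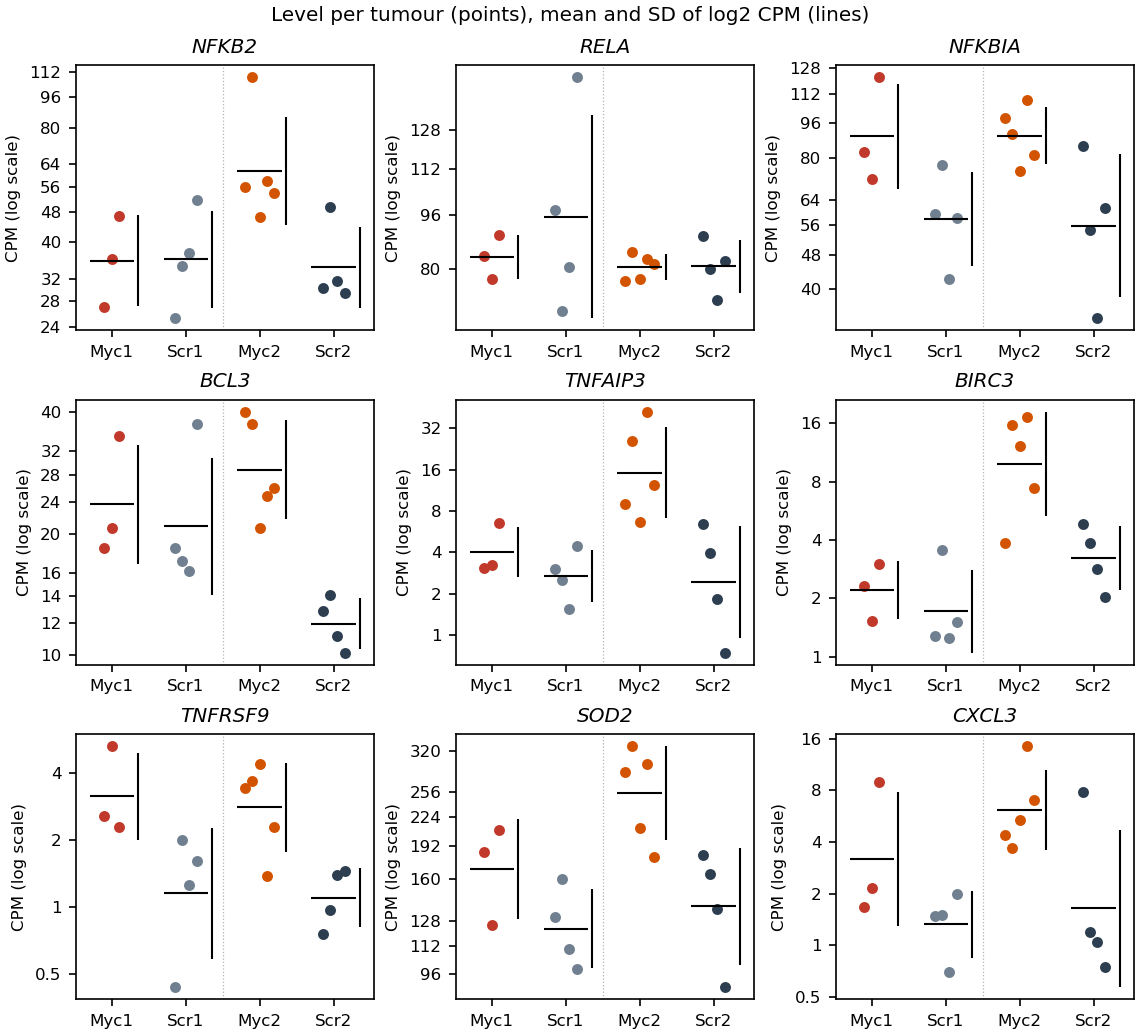
CPM on a log axis in each library for 9 members, Myc groups left of Scr groups, with a horizontal bar at the mean and a vertical bar of 1 SD each way of the log2 values. For CXCL3, Myc1 replicate 3 at 8.94 CPM and Scr2 replicate 1 at 7.79 CPM stand high within their groups, and BCL3 and TNFAIP3 do not overlap between Myc2 and Scr2.

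The members below the level for testing were IL32, CCL2 and CCL20. IL32, a cytokine, stood at 1.29, 0.699 and 1.06 CPM in Myc1, against 0.154, 0.254, 0.172 and 0.154 CPM in Scr1, and at 0.990, 4.92, 1.83, 2.64 and 0.810 CPM in Myc2, against 0.940, 0.635, 0.0735 and 0.571 CPM in Scr2. Its groups did not overlap in the first experiment and did in the second. CCL2, a chemokine for monocytes, reached at most 0.808 CPM in Myc1, with Scr1 lower without overlap and at or near the lowest values of the table, and 2.47 CPM in Myc2 against 0.753 CPM in Scr2. CCL20 stayed at 0.422 CPM or less in Myc2 and 0.413 CPM or less in Scr2. At such levels a few reads make the value, and no fold is given.

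Set side by side, 16 of the 32 members tested in both experiments were above 0 in each, where 21.0% of the 13656 genes tested in both were. At an unadjusted p under 0.05 in each experiment, 3 members were higher, NFKBIA, TNFRSF9 and CXCL3, where 0.322% of all genes (44) were. The experiments share no library, but TNFRSF9 and CXCL3 entered the second test only with Myc2 libraries, where they were higher. This also holds for TNFAIP3 and PTGS2, and the joint fit below used the same filter. The mean of both effects, from a joint fit over the 4 groups, was above 0 for 22 of 32 members, with 12 higher at a p under 0.05 (4.07% of all genes) and 1 lower, IKBKE (3.90%). Those with the 6 smallest p were TNFAIP3 at 1.61 ± 0.44, CXCL3 at 1.59 ± 0.48, TNFRSF9 at 1.40 ± 0.35, BCL3 at 0.72 ± 0.21, SOD2 at 0.67 ± 0.18 and NFKBIA at 0.66 ± 0.18, all in log2 units with SE. No member passed adjustment for the mean either, the smallest adjusted p by limma being 0.437, for TNFRSF9 and SOD2.

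The difference between the effects was tested in the same fit, as the siRNA 1 effect minus the siRNA 2 effect. It had a p under 0.05 for 6 of 32 members, all below 0 (4.63% of all genes were) and none above 0 (4.12%). These were TNFAIP3 at -2.07 ± 0.89, BCL3 at -1.09 ± 0.42, IRAK2 at -0.96 ± 0.39, NFKB2 at -0.85 ± 0.40, IKBKB at -0.81 ± 0.34 and TRAF1 at -0.81 ± 0.38, with adjusted p of 0.528 each. No gene passed adjustment, so a difference between the experiments was not shown for any member. For NFKBIA and TNFRSF9 the effects lay close together, with differences of -0.05 ± 0.37 and 0.10 ± 0.70.

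A further list of 44 genes of the pathway, receptors, adaptors and other targets, gave 39 measured and 35 tested genes in the first experiment, 13 of them above 0, 1 higher and 1 lower at a p under 0.05 (1.96% and 1.52% of all genes), with a median of -0.11. In the second, 40 were measured and 36 tested, 26 above 0, 5 higher and 0 lower (7.00% and 6.36% of all genes), with a median of 0.18. All 5 were targets, and none of the 23 tested receptors, adaptors and kinases was among them. ICAM1, an adhesion molecule and classical target, stood at 3.44, 0.847 and 3.23 CPM in Myc1, against 0.308, 0.962, 0.432 and 1.19 CPM in Scr1. Its levels were 0.820, 2.41, 0.758, 4.63 and 2.45 CPM in Myc2, against 2.16, 0.116, 0.469 and 0.0958 CPM in Scr2. The groups overlapped, and since 3 of the 4 libraries of each Scr group were under 1 CPM, ICAM1 entered the test mainly through the Myc groups. It averaged 1.08 ± 1.14 log2 CPM in Myc1 and -0.68 ± 0.92 in Scr1 (difference 1.76 ± 0.66, 95% interval 0.34 to 3.17), and 0.82 ± 1.13 in Myc2 and -1.62 ± 2.09 in Scr2 (2.44 ± 0.91, 95% interval 0.45 to 4.42). PLAU, the urokinase, was higher in Myc2 than in Scr2 (0.92 ± 0.26, 95% interval 0.34 to 1.50), and the cytokines LIF and IL6 by 0.91 ± 0.34 and 1.26 ± 0.56. In Myc1 minus Scr1 these 3 genes differed by 0.25 ± 0.38, -0.50 ± 0.37 and 1.07 ± 1.00. MYD88, the adaptor of Toll-like receptors, averaged 6.35 ± 0.13 in Myc1 and 6.85 ± 0.28 log2 CPM in Scr1, without overlap (-0.50 ± 0.21, 95% interval -0.96 to -0.04), and differed by -0.28 ± 0.14 in Myc2 minus Scr2. IRAK1, a kinase below MYD88, differed by -0.56 ± 0.27 in the first experiment and -0.09 ± 0.17 in the second. The receptor CD40 differed by -0.83 ± 0.41 in the first and 0.70 ± 0.42 in the second, and the difference between these effects was -1.53 ± 0.60, with an adjusted p of 0.528 by limma.

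Other cell types can carry NF-kB target RNA, so their markers are given beside these values. The measured markers carry human gene identifiers, while host cells in these xenografts are mouse. They could reflect host cells only through mouse reads counted on human genes, and how mouse reads were kept apart is not given. Neither their sums nor the absence of a marker measures host cell content. Of 12 microglia and macrophage markers 5 were measured in each table, and they summed to 333 to 404 CPM in Myc1 and 249 to 349 CPM in Scr1, and to 180 to 278 CPM in Myc2 and 165 to 273 CPM in Scr2. Most of the sum was CD68, which tumour cells also express and which differed by 0.34 ± 0.20 in the first experiment and 0.02 ± 0.20 in the second. MSR1, a scavenger receptor, was lower in Myc1 than in Scr1 (-1.70 ± 0.65, 95% interval -3.08 to -0.31) and differed by -1.12 ± 0.55 in the second experiment. CSF1R differed by -0.25 ± 0.31 and 0.03 ± 0.30 in the first and second experiments. CD14 was under the level for testing in both, with differences of means of -0.24 and -1.15, and so was PTPRC in the second, with -2.63. Of the markers that define such cells, AIF1, C1QA, C1QB, TYROBP, CX3CR1 and MRC1 are in neither table as given here, and PTPRC is not in the first.

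Of 6 endothelial markers, 3 were measured in the first table and summed to 2.04 to 2.80 CPM in Myc1 and 1.38 to 2.72 CPM in Scr1. In the second, 4 summed to 6.09 to 54.1 CPM in Myc2 and 3.11 to 25.4 CPM in Scr2, with CDH5 higher in Myc2 (2.28 ± 0.91, 95% interval 0.29 to 4.26). CDH5 averaged 1.04 ± 1.41 log2 CPM (SD) in Myc2 and -1.24 ± 1.87 in Scr2. At this low level it could not have entered the test on Scr2 alone. It is not in the first table. TIE1, with the highest means of the 4, differed there by 2.09 ± 1.09, KDR by 0.49 ± 0.40 and VWF by 0.03 ± 0.45. The intervals of these held 0. In the first experiment KDR differed by 1.20 ± 0.68. VWF and TIE1 were under the level for testing there, with differences of means of -0.47 and 0.03. Of 6 neuronal markers 3 were measured in each, at 14.7 to 15.6 CPM in sum in Myc1 and 8.39 to 15.1 CPM in Scr1, and at 5.15 to 15.6 CPM in Myc2 and 8.09 to 19.5 CPM in Scr2. SNAP25, a synaptic protein, was higher in Myc1 than in Scr1 (0.81 ± 0.35, 95% interval 0.05 to 1.56) and differed by -0.56 ± 0.48 in the second experiment. SYT1 differed by -0.36 ± 0.39 in the first experiment and -0.38 ± 0.36 in the second. RBFOX3 was under the level for testing in both, with differences of means of -0.53 and 0.86. Of 5 astrocyte markers 4 were measured, summing to 181 to 268 CPM in Myc1 and 112 to 269 CPM in Scr1, and to 149 to 589 CPM in Myc2 and 128 to 412 CPM in Scr2. Most of the sum was GJA1, which averaged 7.39 to 8.45 log2 CPM by group. GFAP averaged 0.77 to 1.27 log2 CPM, and AQP4 is in neither table as given here. Pericyte markers, 5 of 5 and then 4 of 5 measured, summed to 237 to 329 CPM in Myc1 and 259 to 424 CPM in Scr1, and to 309 to 437 CPM in Myc2 and 179 to 416 CPM in Scr2. Most of the sum was PDGFRB and CSPG4, which averaged 7.47 to 7.82 and 6.07 to 6.67 log2 CPM by group. RGS5 averaged 1.49 to 1.89 log2 CPM. The astrocyte and pericyte sums thus rest on few genes, and which cells carried their RNA was not tested. The 1 measured oligodendrocyte marker of 5, MBP, stood at 0.219 to 0.297 CPM in Myc1 and 0.364 to 0.521 CPM in Scr1, lower in Myc1 without overlap and under the level for testing, and at 1.27 CPM or less in the second experiment. Of 5 neutrophil and T cell markers 1 was measured, at 7.92 CPM or less in every library. The part of host cells in the member differences was not tested.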

How the data were processed

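RNA of 16 U87 xenografts, 1 library a mouse per the labels' titles, was sequenced on an Illumina NextSeq. The submitters' processing notes name bcl2fastq 2.20.0, STAR 2.6.0b, Picard, and genome builds hg19 and mm10. How reads were counted, and how mouse reads were kept apart, is not given in the sources used here. Log2 values per gene were deposited by the authors in a table per experiment. Read from the values, these are log2 CPM quantile-normalized within the table, so tables were compared only through differences, and a shift of most genes at once cannot be seen. Library sizes were estimated from the spacing of the lowest values, read as log2(count + 0.5).

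Members were matched by symbol, the most abundant row standing for a repeated symbol. The members and lists were chosen with earlier results of these data known. Each experiment was fitted over all genes with limma 3.58.1 in R 4.3.3 (trend and robust), with genes at 1 CPM or more in as many libraries as the smaller group (3 and 4), two-sided tests, Benjamini-Hochberg adjustment and a threshold of 0.05. A joint fit over 13656 genes and 4 groups gave the mean and the difference of the effects, and MYC was tested by exact permutation. Values by library are given for the 5 subunits, NFKBIA and the 10 members with the smallest p in each experiment. Of the further list, the 4 genes with the smallest p in each were named. The fit was tested on simulated data. Promoters are RefSeq's, GRCh38.p14, the first listed for each member, with matches searched in the 250 bases before the start on both strands. Alternatives were pseudocounts of 0.1 and 1, no filter, a 5 CPM filter, limma without trend, the joint fit and leaving out libraries.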

Additional observations from a re-analysis of the deposited data

Results flagged for a closer look

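Within groups of 4 or 5 libraries, the 9 values below stood far from the rest: the gap to the nearest library, as a share of the group's whole range, was above Dixon's 95% critical value. Chance flags about 1 in 20 groups, and 96 gene and group combinations were screened. The share is on the log2 scale, and the cause was not tested for any of them.

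Scr2 replicate 1 stood high for the chemokines, with CXCL1 at 17.7 CPM and its nearest neighbour at 1.53 CPM (share 0.880), and CXCL2 at 16.2 against 2.29 CPM (0.851). Scr2 replicate 2 stood high for NFKB2, at 49.5 against 31.7 CPM (0.854), and for CFLAR, at 94.8 against 62.6 CPM (0.834). Scr2 replicate 4, the library with the lowest estimated size of its experiment, stood high for TRAF2, at 45.0 against 27.8 CPM (0.917). In Myc2, replicate 2 stood high for NFKB2, at 108 against 58.0 CPM (0.739), and replicate 3 for NFKBIB, at 45.8 against 26.7 CPM (0.715). In Scr1, replicate 4 stood high for BCL3, at 37.3 against 18.4 CPM (0.843), and replicate 1 low for IRAK2, at 19.1 against 40.3 CPM (0.852).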

How the results depend on the processing

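No member passed the adjusted threshold under any alternative, and no gene did except as follows. In Myc1 minus Scr1, 1 gene passed with the 5 CPM filter, and 0 to 2 with 1 library left out. In Myc2 minus Scr2, 2 genes passed without Scr2 replicates 1 and 4, and 0 to 9 with 1 library left out, most without Myc2 replicate 3. For the mean of both effects 0 to 1 passed with 1 library left out. The 3 members higher in Myc1 at an unadjusted p under 0.05 became 5 without a filter, 1 with the 5 CPM filter, 1 without trend, and 1 to 5 with 1 library left out. Leaving out the filter lets in IL32 and CCL2, at levels where a few reads make the value. IL32 also entered without Myc1 replicate 2, the setting that gave 5 with 1 library left out. Without Myc1 replicate 3, 11 of 32 members were above 0 and the median was -0.12, against 18 and 0.07 with all libraries. Without Scr2 replicates 1 and 4, 15 of 34 members were higher in Myc2, 30 were above 0 and the median was 0.69, where 2.01% of all genes were higher. The filter follows the smaller group, so it was looser here, and the 34 include IL32 and CCL2. Both reached 1 CPM in Myc2 libraries only, so these counts are not over the same 32 members. IL32 also entered wherever 1 Scr2 library was left out. With 1 library left out, 13 to 18 members were higher in Myc2, where 3.02% to 13.2% of all genes were, and the median was 0.56 to 0.76. The sign of a member turned in 26 of 408 values in the first experiment and 13 of 511 in the second. Genes at an unadjusted p under 0.05 numbered 181 to 955 in the first experiment and 719 to 3928 in the second with 1 library left out. No paired analysis was possible because the labels give no number or pairing that links libraries of different groups. Depth limits the members of low level most, TNFRSF9 resting on an estimated 4.24 reads in Scr1 replicate 3.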
